A study of Mus musculus with 8 samples.

Results

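The Ugt1a locus of mouse chromosome 1 holds 9 overlapping genes, Ugt1a1, Ugt1a2, Ugt1a5, Ugt1a6a, Ugt1a6b, Ugt1a7c, Ugt1a8, Ugt1a9 and Ugt1a10, and is described here through liver loops recovered with an antibody to tagged REV-ERBα. A loop was taken when an anchor lay between 88.03 and 88.23 Mb (mm10), and each loop was counted once. These were 72 of the 277517 listed loops of the 6 anti-HA libraries. The cluster was chosen by its paired-end tags (PETs) in the ZT10 and ZT22 knock-in libraries, so that contrast is given as values, with no test. A PET is a sequenced pair whose ends joined both anchors of a loop, and the raw PET count is the value used throughout.

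In-situ ChIA-PET crosslinks, cuts and religates chromatin inside nuclei and then enriches it with an antibody, here beads against the HA tag. The knock-in mice were REV-ERBa3HA/3HA, carried the tag on their own REV-ERBα, received no virus and gave 1 library at zeitgeber time (ZT) 10 and 1 at ZT22. The other 4 libraries were all from REV-ERBaf/fREV-ERBbf/f mice at ZT10, given AAV8-TBG-Cre together with AAV8-TBG-3HA-REV-ERBa-delhIDR (dhIDR, 2 libraries) or AAV8-TBG-3HA-REV-ERBa-WT (WT, 2 libraries). The TBG promoter is active in hepatocytes, so the virus-borne REV-ERBα, with or without its hIDR, comes from hepatocytes, while other liver cells keep their floxed alleles. Whether the 2 libraries of a construct stem from different animals is not stated in the labels, so a p-value here reflects only how far these libraries differ, and part of that may be technical.

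UGT1A enzymes sit in the endoplasmic reticulum and join glucuronic acid to small lipophilic molecules, which then leave in bile or urine. Each gene of the cluster has its own promoter and first exon, spliced to a common set of exons at the 3′ end, so the first exon sets which substrates the enzyme takes and the common exons bind the sugar donor. UGT1A1 is the enzyme that conjugates bilirubin, the product of haem breakdown. REV-ERBα (gene Nr1d1) is a nuclear receptor of the circadian clock that represses transcription.

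The starts run in the order Ugt1a10, Ugt1a9, Ugt1a8, Ugt1a7c, Ugt1a6b, Ugt1a6a, Ugt1a5, Ugt1a2 and Ugt1a1 along the plus strand, and lie 157, 141, 124, 117, 109, 77.2, 45.9, 11.3 and 0 kb before the Ugt1a1 start at position 88211959. The common end is annotated at 88220002, and at 88218998 for Ugt1a8 and Ugt1a6b. RefSeq's promoter table held 8 of the 9 members. The 250 bases before the start are shown for the 3 members whose promoter lay under a ZT10 anchor, for Ugt1a10, the closest relative of Ugt1a9, for Ugt1a7c, which had no ZT10 anchor near it, and for Hjurp, a neighbouring gene whose start lay under the far anchor of the second strongest loop. The promoter table places the Hjurp start inside the annotated gene, so its window overlaps the gene by 65 bases. Capitals mark AGGTCA and GGGTCA, half-sites of the kind nuclear receptors bind, and GTTAAT, a half-site of the liver factor HNF1, on either strand.
Ugt1a1: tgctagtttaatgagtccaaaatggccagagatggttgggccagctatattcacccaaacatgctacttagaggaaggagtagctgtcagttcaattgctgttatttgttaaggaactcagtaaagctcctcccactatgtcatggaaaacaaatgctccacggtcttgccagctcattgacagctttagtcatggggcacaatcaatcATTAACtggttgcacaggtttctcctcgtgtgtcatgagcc
Ugt1a5: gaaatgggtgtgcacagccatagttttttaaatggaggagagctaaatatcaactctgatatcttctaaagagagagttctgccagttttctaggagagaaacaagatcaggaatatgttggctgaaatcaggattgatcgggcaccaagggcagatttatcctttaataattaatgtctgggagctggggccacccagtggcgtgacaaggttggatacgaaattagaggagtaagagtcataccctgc
Ugt1a9: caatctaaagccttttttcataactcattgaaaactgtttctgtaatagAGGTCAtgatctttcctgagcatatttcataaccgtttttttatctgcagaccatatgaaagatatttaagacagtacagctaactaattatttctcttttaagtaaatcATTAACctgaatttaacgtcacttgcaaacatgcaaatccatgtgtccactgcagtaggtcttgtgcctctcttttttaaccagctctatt
Ugt1a10: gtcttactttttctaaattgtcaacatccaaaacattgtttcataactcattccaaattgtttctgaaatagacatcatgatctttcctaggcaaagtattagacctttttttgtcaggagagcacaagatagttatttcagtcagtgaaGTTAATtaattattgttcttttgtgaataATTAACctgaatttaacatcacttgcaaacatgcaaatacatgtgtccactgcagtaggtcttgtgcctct
Ugt1a7c: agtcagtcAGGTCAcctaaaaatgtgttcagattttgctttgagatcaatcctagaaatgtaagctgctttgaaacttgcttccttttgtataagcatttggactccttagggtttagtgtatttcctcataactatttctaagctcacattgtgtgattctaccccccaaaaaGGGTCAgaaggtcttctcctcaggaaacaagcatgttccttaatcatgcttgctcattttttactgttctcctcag
Hjurp: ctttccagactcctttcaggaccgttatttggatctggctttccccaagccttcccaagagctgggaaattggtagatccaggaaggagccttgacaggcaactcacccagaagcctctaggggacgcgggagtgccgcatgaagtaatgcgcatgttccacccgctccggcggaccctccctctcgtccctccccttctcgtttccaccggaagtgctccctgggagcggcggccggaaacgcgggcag
The windows are, in GRCm38.p6, chr1:88211709-88211958 (Ugt1a1), chr1:88165762-88166011 (Ugt1a5), chr1:88070529-88070778 (Ugt1a9), chr1:88055161-88055410 (Ugt1a10) and chr1:88094751-88095000 (Ugt1a7c) on the plus strand, and chr1:88277580-88277829 (Hjurp) on the minus strand.

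Among these windows AGGTCA occurred in Ugt1a9, 201 bases before the start, and in Ugt1a7c, 242 bases before it. GGGTCA occurred 76 bases before the Ugt1a7c start and, in a window not printed, 191 bases before the Ugt1a8 start. Neither was found before Ugt1a1, Ugt1a5, Ugt1a10, Ugt1a6a, Ugt1a2 or Hjurp. GTTAAT or its reverse complement ATTAAC lay 41 bases before the Ugt1a1 start, 91 before Ugt1a9, 100 and 71 before Ugt1a10 and 50 before Ugt1a6a. Of 32851 RefSeq promoter windows of the same length, 14.0% held AGGTCA, 11.7% GGGTCA and 6.43% GTTAAT, counting both strands. Aligned in pairs, the 8 member windows were 42.9% to 68.9% identical with a median of 46.5% over 28 pairs, and the highest value was that of Ugt1a10 and Ugt1a9. Anchors of ZT10 window loops that overlapped the printed windows carried 461 PETs at Ugt1a1, 10 at Ugt1a5, 3 at Ugt1a9 and 139 at Hjurp, and 0 at Ugt1a10 and Ugt1a7c. The Ugt1a1 window, with most PETs, thus held neither receptor half-site, which says only that these letters are not in it.

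The knock-in libraries listed 57865 loops (ZT10) and 40597 loops (ZT22), with 47939 and 41981 in dhIDR replicates 1 and 2, and 31033 and 58102 in WT replicates 1 and 2. Listed PETs, in the same library order, numbered 320427, 132709, 178426, 160635, 104161 and 204018. Every listed loop had at least 3 PETs. Whether another criterion also decided the listing is not given in the sources used here, so the PETs of unlisted loops are unknown and the listed sum is not sequencing depth. Of the hepatocyte markers checked, 7 of 8 had PETs at ZT10, 1214 in all, among them the fibrinogen gene Fgb with 712, and Serpina1a had 0. Markers of other liver cells had fewer PETs at ZT10, with 59 over 4 of 5 endothelial genes, 17 over 3 of 5 stellate genes, 32 over 1 of 5 cholangiocyte genes and 0 over 5 Kupffer genes. That order did not hold in every other library. Hepatocyte markers had 26 PETs at ZT22 (4 of 8 genes), 26 and 8 in dhIDR (5 and 2 of 8) and 16 and 7 in WT (3 and 1 of 8). Stellate markers had 26 PETs at ZT22, 17 and 0 in dhIDR and 7 and 25 in WT, and Kupffer markers had 7 at ZT22, 18 and 9 in dhIDR and 3 and 32 in WT. Cholangiocyte markers had 6 at ZT22, 0 and 26 in dhIDR and 3 and 9 in WT, and endothelial markers 9 at ZT22, 19 and 9 in dhIDR and 3 and 3 in WT. The part of these markers in the construct comparison was not tested. In bulk liver, fewer looped cells and fewer loops per cell cannot be told apart.

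At ZT10 the knock-in library listed 48 loops of the window with 778 PETs (95% exact Poisson interval 724 to 835), and at ZT22 it listed 8 with 25 PETs (16.2 to 36.9). The intervals cover counting error only. As shares of listed PETs these were 243 and 18.8 per 100000, a log2 ratio of ZT10 over ZT22 of 3.69 (3.12 to 4.32). Tiles of 200 kb holding 30 or more PETs in these libraries numbered 5200, and 11.7% of them had a share at least 4-fold higher at ZT10 and the median log2 ratio was -0.66. The window was number 18 by ZT10 PETs among the 9815 tiles with any. When loops with an anchor narrower than 700 bp were left out, the log2 ratio was 1.56 (0.85 to 2.37), and the loops kept made up 71.5% of all ZT10 loops and 11.7% of all ZT22 loops. These libraries have no replicate.

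**Figure D1:**
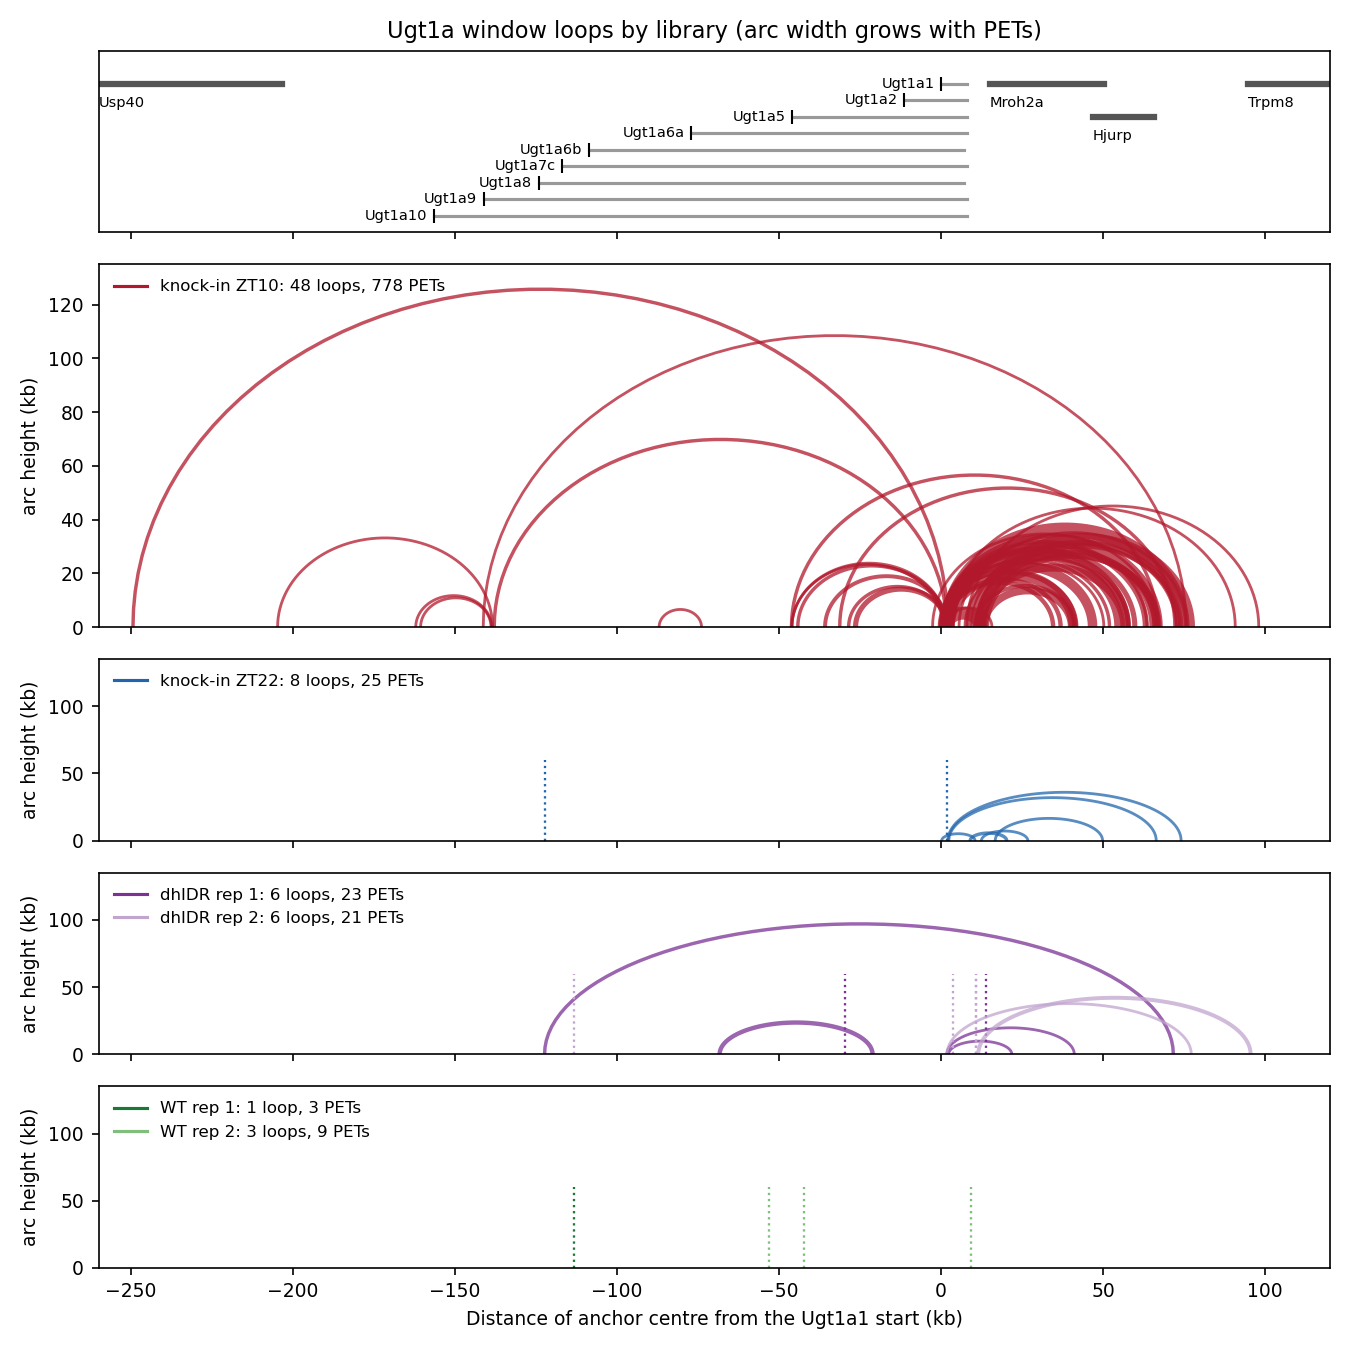
Window loops of the 6 anti-HA libraries. The x axis is the distance of each anchor's centre from the Ugt1a1 start in kb, the y axis is the arc height (span over 2) in kb, arcs join the anchors with a width that grows with PETs, and dotted lines mark the window anchor of loops that leave the drawn range. The top panel shows gene extents with a tick at each member's start. Most of the 48 ZT10 loops gather right of the Ugt1a1 start, and the 1 and 3 loops of the WT libraries all leave the range.

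Nearly all of the ZT10 signal sat at the downstream end of the cluster. Assigning each anchor within 5 kb to the nearest member start, 28 of the 48 loops and 588 of the 778 PETs (75.6%; interval 541 to 638 PETs) had an anchor at Ugt1a1. Another 14 loops with 274 PETs (243 to 308) had an anchor within 5 kb of the common 3′ end. A loop with anchors at both sites counts for each. The other starts had few or none. Ugt1a9, whose human namesake conjugates phenols such as propofol, had 5 loops and 16 PETs. Ugt1a5 had 4 loops and 14 PETs. Ugt1a10 and Ugt1a6a, the second of which belongs to the subfamily that conjugates planar phenols, had 1 loop of 3 PETs each. Ugt1a8, Ugt1a7c, Ugt1a6b and Ugt1a2 had 0, although the Ugt1a2 start lies only 11.3 kb from that of Ugt1a1. Anchors in the window at no such site belonged to 7 loops with 30 PETs.

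**Figure D2:**
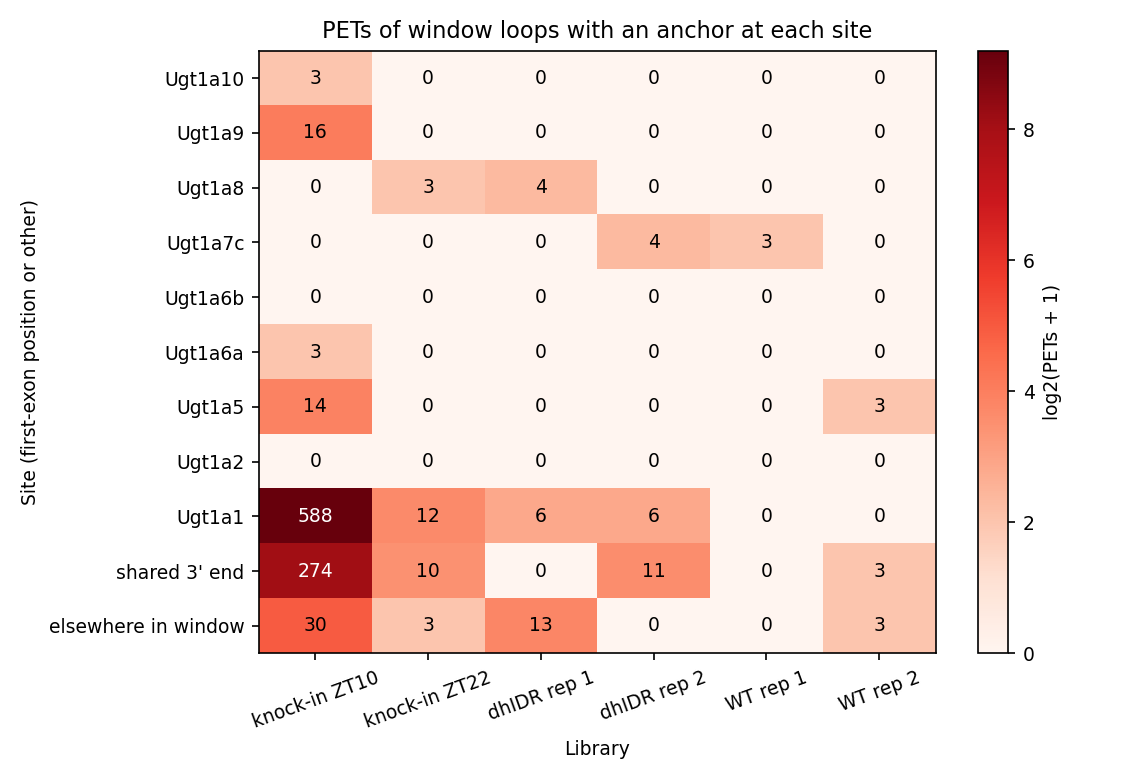
PETs of window loops with an anchor at each member start, at the common 3′ end or elsewhere, for each library, on a colour scale of log2(PETs + 1) with the PETs printed. Ugt1a1 holds 588 PETs at ZT10, against 12 at ZT22, and has 6 and 6 in the dhIDR libraries, against 0 and 0 in the WT libraries.

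In the other libraries the same 2 sites led at ZT22 and in dhIDR replicate 2. At ZT22 Ugt1a1 had 4 loops and 12 PETs, the 3′ end had 3 loops and 10 PETs, and Ugt1a8 had 1 loop of 3 PETs. In dhIDR replicate 1 Ugt1a1 had 2 loops and 6 PETs, Ugt1a8 1 loop of 4 PETs, and the 3′ end none, while 3 loops with 13 PETs lay at no such site. In dhIDR replicate 2 Ugt1a1 had 2 loops and 6 PETs, the 3′ end 3 loops and 11 PETs, and Ugt1a7c 1 loop of 4 PETs. Assigned within 2 kb, dhIDR replicate 2 had 3 PETs at Ugt1a1, 0 at the 3′ end and 18 elsewhere in the window. At ZT22 those values were 9, 7 and 9. WT replicate 1 had 1 loop of 3 PETs, at Ugt1a7c, and WT replicate 2 had loops of 3 PETs at Ugt1a5, at the 3′ end and elsewhere. No library listed a loop at Ugt1a6b or Ugt1a2.

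When overlapping ZT10 anchors were merged, the Ugt1a1 anchors formed a place of 5.83 kb at chr1:88210943-88216778, which begins 1.02 kb before the gene's start and ends 4.82 kb after it, with 27 loops and 585 PETs. A place of 8.13 kb at chr1:88218690-88226819 covered the common 3′ end and the stretch up to the neighbouring gene Mroh2a, with 13 loops and 271 PETs. Its upper end reached the 250-base promoter window of Mroh2a (chr1:88226770-88227019). Anchors of ZT10 window loops that overlapped that window carried 196 PETs. Loops of the common 3′ end and of the Mroh2a promoter are thus not told apart at this place. Loops touching either place numbered 39 of 48 and held 749 PETs, 96.3% of the window's, and the loop joining them held 107. Away from both, 9 loops had 29 PETs.

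Most PETs of these places joined them to each other or to 5 places beyond the cluster, and few to the upstream first exons. From the Ugt1a1 place, 19 loops with 550 PETs (70.7% of the window's) ran to higher coordinates, and 8 loops with 35 PETs (4.50%) ran back. The strongest loop of the window had 155 PETs (132 to 181) and joined chr1:88211252-88216778 to chr1:88283244-88289709, which lies between the start of Hjurp and Trpm8 and overlaps no protein-coding gene of the annotation. The next had 113 PETs (93.1 to 136) and ended at chr1:88276524-88280203, over the start of Hjurp, the gene of the histone chaperone that loads the centromeric histone CENP-A. The third, with 107 PETs (87.7 to 129), ended at chr1:88221116-88226819, past the common 3′ end and reaching the Mroh2a promoter window. The intervals of these 2 overlap, and that of the strongest loop overlaps the second by a few PETs.

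The remaining loops of the leading 10 had fewer PETs. From the 3′ end place a loop of 55 PETs ran to the region between Hjurp and Trpm8, 1 of 22 PETs to the body of Hjurp, 1 of 19 PETs into Mroh2a and 1 of 17 PETs to the Hjurp start. From the Ugt1a1 place, loops of 37, 35 and 29 PETs ended in Mroh2a, where Mroh2a and Hjurp overlap, and in Hjurp. Summed over loops, the place between Hjurp and Trpm8 took 155 PETs from the Ugt1a1 place and 74 from the 3′ end place. The Hjurp start took 113 and 38, the body of Hjurp 47 and 25, and the inside of Mroh2a 47 and 24. Each of these 4 places thus had more PETs to the Ugt1a1 place. The place at the overlap of Mroh2a and Hjurp had 35 and 0.

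**Figure D3:**
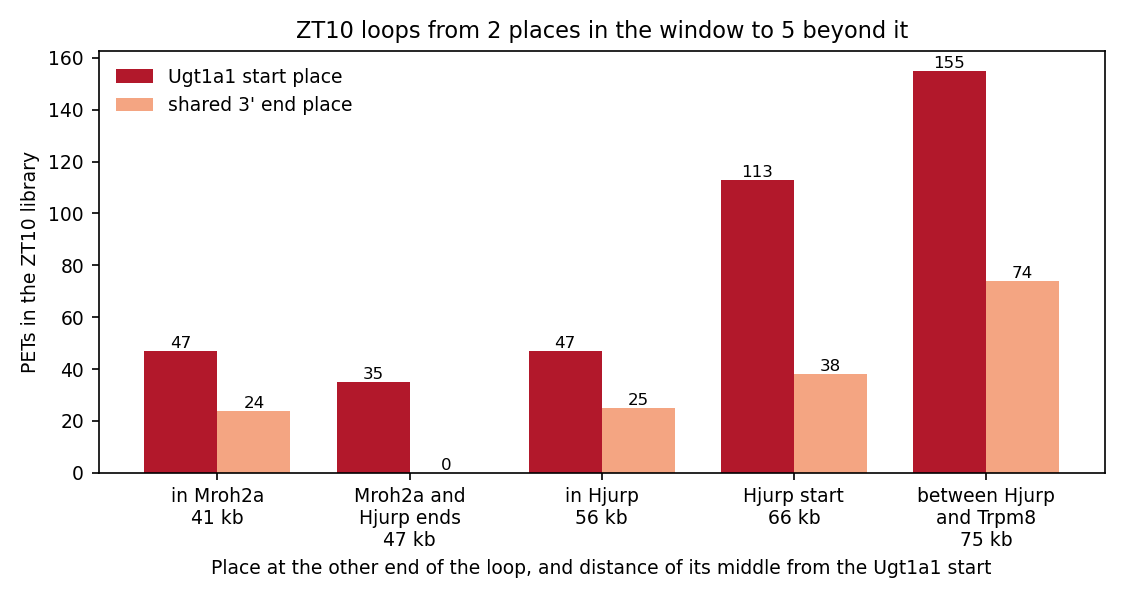
PETs in the ZT10 library of loops from the Ugt1a1 start place and from the common 3′ end place (bars) to the 5 places beyond the cluster with most PETs (x axis, with the distance of each place's middle from the Ugt1a1 start in kb). From left to right the bars are 47, 35, 47, 113 and 155 PETs for the Ugt1a1 place and 24, 0, 25, 38 and 74 PETs for the 3′ end place.

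By the region of their centres, the outer anchors of ZT10 loops fell in Mroh2a outside Hjurp for 7 loops (118 PETs) and in Hjurp for 11 (100 PETs). They fell past the Hjurp start and before Trpm8 for 15 loops (400 PETs). Of these 15, 6 loops with 158 PETs ended at the place that covers the Hjurp start. Another 8 with 239 PETs ended at the place between Hjurp and Trpm8. For 1 loop (3 PETs) the outer anchor fell in Trpm8, which encodes a cold- and menthol-gated ion channel. On the other side, only 2 loops with 7 PETs left the window, both to Usp40, the gene of a ubiquitin-specific protease. They joined Usp40 to Ugt1a1 with 4 PETs over 252 kb and to Ugt1a9 with 3 PETs over 66.4 kb. The other 12 loops, with 150 PETs, had both anchors in the window.

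Loops among the upstream first exons were weak. The 5 loops at Ugt1a9 had 3 or 4 PETs. They reached Ugt1a1 (4 PETs, 140 kb), Usp40, the stretch near the Ugt1a10 start (3 PETs), an anchor further upstream (3 PETs) and the region between Hjurp and Trpm8 (3 PETs, 217 kb). Of the 4 loops at Ugt1a5, 3 ran to Ugt1a1 with 4, 3 and 3 PETs over 45.6 to 47.6 kb, and 1 ran to the Hjurp start with 4 PETs over 113 kb. Between Ugt1a5 and Ugt1a2, loops of 8, 5 and 4 PETs ran to the Ugt1a1 place from 26.4, 35.8 and 28.5 kb before its start. Only 4 loops, with 12 PETs (1.54%), had both anchors below the Ugt1a1 place. Values of 3 PETs are the lowest listed, so no order among these members is read from them.

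Of the ZT10 loops in the window, 43 of 48 spanned under 100 kb (89.6%), against 72.8% of all ZT10 loops, and the median spans were 53.6 kb in the window and 40.1 kb in all loops. The mean was 16.2 PETs per window loop and 5.54 per ZT10 loop overall. The median anchor was 1477 bp wide in the window, against 1067 bp overall. The window was chosen by its PETs in this library too, so values above those of all ZT10 loops can follow from that choice. They are descriptions. At the window's upper edge the last anchor inside lay 1.51 kb from the edge and the nearest outside 2.74 kb from it, and at the lower edge these distances were 19.3 and 14.4 kb. Each of these 4 loops had 3 PETs.

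The ZT22 loops were few but placed alike. Of the 8, 3 matched a ZT10 loop with at least 1 bp of overlap at both anchors (37.5%, Wilson 95% interval 13.7 to 69.4%), against 1.29% of all ZT22 loops. The 3 were those matching the ZT10 loops of 155, 113 and 107 PETs, each with 3 PETs at ZT22. The strongest ZT22 loop had 4 PETs and joined chr1:88220515-88221484, past the common 3′ end, to an anchor within 5 kb of the Mroh2a start. A further loop of 3 PETs joined the 3′ end place to Mroh2a over 14.3 kb, and 1 of 3 PETs ran 33.1 kb from the Mroh2a start to its far end. The other 2, from Ugt1a1 and from Ugt1a8, spanned 74.8 and 105 Mb. Loops under 100 kb made up 6 of 8 in the window (75.0%), against 34.3% of all ZT22 loops. Both anchors were at least 700 bp wide for 62.5% (30.6 to 86.3%) of the window's loops, against 11.7% of all ZT22 loops. The time of day chose the cluster through the PETs of this library too, so these shares are descriptions.

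The construct comparison asked whether the window was looped differently by REV-ERBα without its hIDR, and did not choose the cluster. The dhIDR libraries listed 6 and 6 window loops with 23 PETs (14.6 to 34.5) and 21 PETs (13.0 to 32.1), and the WT libraries listed 1 and 3 with 3 PETs (0.62 to 8.77) and 9 PETs (4.12 to 17.1). As shares these were 12.9 and 13.1 per 100000 listed PETs in dhIDR, against 2.88 and 4.41 in WT. Both dhIDR values lay above both WT values. The means were 13.0 ± 0.13 in dhIDR and 3.65 ± 1.08 in WT (SD, n = 2 each), a difference of 9.34. The exact two-sided permutation p was 0.333, the smallest that 2 against 2 libraries allow.

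The difference was not called over the genome. With edgeR's quasi-likelihood test on 12032 tiles of 200 kb, 1 of them the window, the log2 fold change of dhIDR over WT was 1.76 (SE 0.90) and the Benjamini-Hochberg adjusted p was 0.999. The test called 1 tile, 0.00831% of those tested, and 412 had an unadjusted p under 0.05. Both dhIDR shares lay above both WT shares in 17.4% of tiles, so that order is common. The fold change was less so, with 0.831% of tiles having a higher one, and 556 tiles had a p no larger than that of the window. The 4 AAV libraries together held 56 PETs in the window, against a median of 91 per tested tile, and the window entered the test through its dhIDR counts. The correlation of log2 CPM between replicates over tiles was 0.22 for dhIDR and 0.26 for WT.

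**Figure D4:**
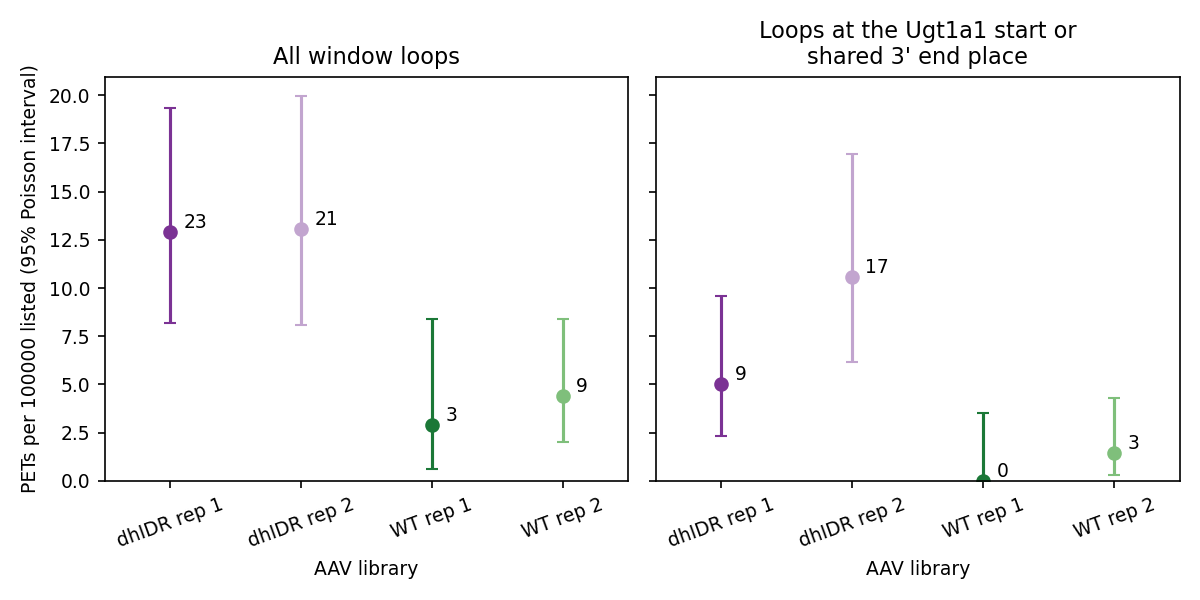
PETs per 100000 listed PETs in the 4 AAV libraries, for all window loops (left) and for loops touching the Ugt1a1 start place or the common 3′ end place (right). Points are libraries with their PETs printed beside them, and bars are 95% exact Poisson intervals of the count. On the left the dhIDR libraries lie at 12.9 and 13.1, against 2.88 and 4.41 in WT.

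In the reported fit no member could be tested. PETs of loops within 5 kb of a gene start were too few for any of the 9 members to pass edgeR's filter, which left 112 genes, of which 0 were called (0%) and 7 had an unadjusted p under 0.05. Ugt1a1 had 6 and 6 PETs in dhIDR, against 0 and 0 in WT, and its groups did not overlap. Of 16039 genes with a PET in any of these 4 libraries, both dhIDR shares lay above both WT shares in 10%, and 6.2% had PETs in both dhIDR libraries and in neither WT library. No fold is given, since the PETs of unlisted WT loops are unknown. Without the filter, edgeR gave Ugt1a1 a fitted log2 of 5.58 (SE 3.21), which depends on the prior count, with an adjusted p of 0.882. The other members in that fit were Ugt1a8 with 4.01 (SE 4.93), Ugt1a6b with 2.07 (SE 1.92), Ugt1a7c with 0.31 (SE 3.14) and Ugt1a5 with -3.70 (SE 5.95). With 25 kb around the starts, edgeR gave Ugt1a1 a log2 of 2.38 (SE 1.37) and Ugt1a2 3.33 (SE 1.43). Ugt1a6b, counted in both fits from either end and so including the common 3′ end, had 1.76 (SE 0.84). The edgeR adjusted p was 0.9998 for each with 25 kb, and these members share loops. The groups overlapped at Ugt1a7c, with 0 and 4 PETs in dhIDR and 3 and 0 in WT, and at Ugt1a8, with 4 and 0 in dhIDR and 0 and 0 in WT. Ugt1a5 had 0 and 0 PETs in dhIDR and 0 and 3 in WT.

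Some of the dhIDR loops lay at the places of the ZT10 knock-in loops. Those touching the Ugt1a1 place or the 3′ end place, both defined on the ZT10 knock-in library, were 3 of 6 and 5 of 6 in dhIDR, with 9 and 17 PETs, and 0 of 1 and 1 of 3 in WT, with 0 and 3 PETs. In dhIDR replicate 1 a loop of 3 PETs joined chr1:88213356-88214174 to chr1:88252543-88253661 and matched the ZT10 loop of 37 PETs into Mroh2a. In dhIDR replicate 2 a loop of 3 PETs joined chr1:88213186-88214487 to chr1:88288716-88289716 and matched the strongest ZT10 loop, of 155 PETs. These were 1 of 6 loops in each dhIDR library (16.7%, Wilson 3.01 to 56.4%), against 0.720% and 0.348% of all their loops. Each share rests on 1 loop of 3 PETs. The window was chosen by its PETs in the knock-in libraries, so a share above that of all loops can follow from that choice. These shares are thus descriptions. In WT, 0 of 1 and 0 of 3 window loops matched, against 0.525% and 0.365% of all WT loops, with upper limits of 79.3% and 56.1%, so a difference between the constructs was not detectable at this depth.

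The other dhIDR loops had few PETs. The strongest in replicate 1 had 6 PETs (2.20 to 13.1) and joined places 68.3 and 21.1 kb before the Ugt1a1 start, at no member's start. A loop of 4 PETs ran 194 kb from Ugt1a8 to the region between Hjurp and Trpm8, and 1 of 3 PETs ran 19.5 kb from Ugt1a1 into Mroh2a. A further loop of 3 PETs spanned 12.4 Mb. The strongest in replicate 2 had 5 PETs (1.62 to 11.7) and joined the 3′ end place to the start of Trpm8 over 84.1 kb. Apart from the matched loop, its others, of 3 or 4 PETs, spanned 0.50 to 79.4 Mb. Loops over 2 Mb numbered 2 and 2 in the dhIDR libraries and 1 and 2 in the WT libraries. The WT loops spanned 44.7 Mb in replicate 1 and 76.3, 33.6 and 0.49 Mb in replicate 2, so none was under 100 kb, against 3 and 2 loops under 100 kb in the dhIDR libraries. Of all loops, 27.4% and 23.6% were under 100 kb in dhIDR, and 27.5% and 26.6% in WT.

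No library pair of the same construct listed the same loop. Anchors at the Ugt1a1 place recurred in both dhIDR libraries with different partners. An anchor starting at position 88098354, 3.35 kb past the Ugt1a7c start, was listed in dhIDR replicate 2 and in WT replicate 1, again with different partners, 0.78 and 44.7 Mb away.

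Genes of the pathway beyond the cluster were looked up within 5 kb of their starts. Of 39 such genes, for other members of the UGT superfamily, supply of the sugar donor, haem and bilirubin handling and regulators of Ugt1a, 32 had PETs at ZT10 and 13 at ZT22, while 36.7% and 33.8% of all 21887 protein-coding genes did. In dhIDR 18 and 9 of the 39 had PETs, against 37.0% and 30.5% of all genes, and in WT 10 and 19 had them, against 24.8% and 38.0%. The lists were chosen with earlier results of these data known, so these shares are descriptions. None of the 39 entered the construct test. The leading gene at ZT10 was Ppara, the fatty acid receptor, with 142 PETs at ZT10 and 0 at ZT22. Nfe2l2, which encodes the oxidative stress factor NRF2, had 141 at ZT10 and 0 at ZT22, and Abcc3, an exporter of glucuronides into blood, had 125 at ZT10 and 0 at ZT22. All 3 were below Ugt1a1 with 588, which was number 6 of all genes by ZT10 PETs. Ugt1a6b had 698 in this gene count, which for a gene with no strand takes in the common 3′ end. At its own start Ugt1a6b had 0. Of the 13 other UGT genes, among them Ugt3a1, Ugt3a2 and Ugt8a, whose enzymes transfer other sugars, 8 had PETs at ZT10, none over 66, and 3 had PETs at ZT22, and neighbouring Ugt2b genes can share loops.

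Within 500 kb of the window, Hjurp had 388 PETs at ZT10 and 12 at ZT22, and Mroh2a had 259 at ZT10 and 13 at ZT22, many of them in the loops described above. The other 12 genes there had 0 to 14 PETs at ZT10 and 0 to 7 at ZT22. The high PETs of the neighbourhood were thus on the side of the common 3′ end, while Usp40 and Dgkd, a diacylglycerol kinase gene, had 6 and 0 PETs at ZT10.

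The genes whose profile over the 6 libraries was most like that of Ugt1a1 were taken by Euclidean distance of log2 PETs per 100000 (pseudocount 0.5 PETs) among 2432 genes with at least 30 PETs, whose median distance was 7.19. They were Bhlhe40, a clock repressor (distance 1.20), Slc39a14, a zinc and manganese transporter (1.53), Cyb5a, cytochrome b5 (1.66), St3gal1, a sialyltransferase (1.72), and Sdc1, syndecan-1 (1.85). Each had 196 to 304 PETs at ZT10 and 6 to 10 at ZT22, and each had PETs in both dhIDR libraries and 0 in both WT libraries, a likeness to Ugt1a1 that the choice by distance fixed. Bhlhe40 had 6 and 10 PETs in dhIDR, against 0 and 0 in WT. These profiles share the libraries' totals and the floor of 3 PETs.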

How the data were processed

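In-situ ChIA-PET of mouse liver gave 8 samples, of which the 6 anti-HA ones were used (2 anti-CTCF samples: not analysed here). A deposited file gives anchor pairs on the same chromosome with a raw count of PETs, not normalized, per library. Per the submitters' processing notes the build was mm10, and the aligner and caller are not given in the sources used here. Anchor starts and ends are other deposited columns, used as positions. The 7 mitochondrial loops were left out. The members and gene lists were chosen with earlier results of these data known.

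Gene positions and promoters came from RefSeq (GRCm38.p6, the coordinates of mm10). The table used here gives no exons, so the annotated 3′ end with 5 kb around it stood for the shared exons, and exonic or intronic position is not given. For 4395 genes with no strand, Ugt1a6b among them, gene-level PETs used either end, so those of Ugt1a6b include the 3′ end. Anchors went to the nearest member start within 5 kb. A match between loops needed 1 bp or more of overlap at each anchor.

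dhIDR and WT libraries (2 each) were compared by edgeR 4.0.16 (R 4.3.3; TMM, filterByExpr, quasi-likelihood, adjusted p under 0.05) over 200-kb tiles and over genes, and by an exact permutation test of the window's share. The replicate numbers were not used as pairs in the reported fit. The correlation of deviations over tiles between WT and dhIDR replicate 1 was 0.0154. With 2 libraries of each construct the deviations of replicate 2 mirror those of replicate 1, so this value cannot settle whether libraries were paired. The edgeR step was also run on simulated counts. That run did not model the lowest listed count, and no result here rests on it. ZT10 and ZT22 have 1 library each, with Poisson, Clopper-Pearson or Wilson 95% intervals. Listed PETs ran from 104161 to 320427 per library. PETs may include copies of a ligation product, so intervals may be too narrow. Alternatives were DESeq2 1.42.0, other filters, scaling, spans, anchor widths, distances, a replicate block and leaving out each library.

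Named were the 9 members, genes within 5 kb of an outer anchor or 500 kb of the window, the 3 listed pathway genes with most ZT10 PETs, the 5 genes nearest Ugt1a1 in profile, the 10 leading ZT10 loops and every loop of the other libraries, except 1 whose result is not reported here. Individual marker genes, Ugt1a5 and Ugt1a9 loops of low count and the places were picked out after their values were seen.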

Additional observations from a re-analysis of the deposited data

How the results depend on the processing

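The window's log2 fold change of dhIDR over WT was positive in each of the 10 alternatives that gave one, and none passed an adjusted p of 0.05. With the replicate number as a block it was 1.79, with an edgeR adjusted p of 0.999. Leaving out a library gave 1.54 to 2.12, and loops under 2 Mb gave 3.25 (edgeR adjusted p = 0.999). It had no value with loops of at least 4 PETs (14 and 9 PETs in dhIDR, 0 and 0 in WT), with anchors of at least 700 bp or with both anchors in the window, because it fell under the filter. Tiles called numbered 1 of 12032 tested in the reported fit. They numbered 0 of 9112 with loops of at least 4 PETs and 0 of 17639 with 100-kb tiles. With both anchors in the tile they numbered 0 of 380, and with wide anchors 0 of 3. So few tiles were tested in these last fits that a 0 there is not a loss of calls. The difference in share ranged from 8.57 to 10.1 per 100000 when a library was left out. It was 14.4 for loops under 2 Mb and 468 with anchors of at least 700 bp. Listed PETs of such wide-anchor loops were 2693 and 971 in dhIDR and 6570 and 7193 in WT. The value of 468 rests on 3 and 8 window PETs in dhIDR, against 0 and 0 in WT, with dhIDR shares of 111 and 824. For loops with both anchors in the window the difference was 1.68, which rests on 1 loop of dhIDR replicate 1. Genes called numbered 5 of 112 tested with DESeq2, where no member was among the 112. With edgeR and no filter they numbered 3 of 16039, none of them a member. They numbered 0 of 112 with edgeR in the reported fit and with the replicate block. With gene distances of 2 kb and 25 kb, edgeR called 0 of 14 and 0 of 5501. The log2 ratio of ZT10 over ZT22 was 4.78 with loops of at least 4 PETs, 1.56 with wide anchors and 4.37 with both anchors in the window. Among loops of at least 4 PETs, 0 of 1 window loops matched a ZT10 loop at ZT22. In dhIDR replicates 1 and 2, 0 of 3 and 0 of 2 matched, and the WT libraries had none to match. The matched loops of the ZT22 and dhIDR libraries all had 3 PETs, so this filter removed them and fixed the outcome. Within 2 kb in place of 5 kb, the common 3′ end had 207 PETs at ZT10 in place of 274. In dhIDR replicate 2 it had 0 in place of 11. The cause of the other changes was not tested. With 3 to 25 PETs in the window, the libraries other than ZT10 can show few differences.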
